A study of Mus musculus with 12 samples.

Results

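Matrix metalloproteinases (MMPs) and their tissue inhibitors (TIMPs) were followed through the retina of mice with optic neuritis. The genes were picked by name from the gene families, with earlier results of these data known, and were the 6 proteases Mmp2, Mmp9, Mmp12, Mmp14, Mmp15 and Mmp24 and the 4 inhibitors Timp1 to Timp4, which are 10 of the 54532 gene identifiers in the count table. All 10 passed the filter on low counts, as did 18299 genes in all. Mmp14 was higher in the retina of MOG-immunized mice than in controls and lower again in both needled groups. Mmp12 was higher and Mmp9 lower in MOG and in GV16 than in controls. Values of about the same size in GB20 did not pass the edgeR test used here, but passed under some other settings. The calls in MOG were lost in 10 of 25 other settings for Mmp9 and in 8 of 24 for Mmp12. Those in GV16 were lost in 13 and 8 of 25. None of the 4 inhibitors passed the edgeR test used here in any of the 6 comparisons, although Timp3 passed against SHAM in both needled groups under some other settings.

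The mice were wild type C57BL/6 females aged 13 weeks, and whole retinas were taken. SHAM mice were sham controls. MOG mice had been immunized with the MOG35-55 peptide of myelin oligodendrocyte glycoprotein in complete Freund's adjuvant, followed by pertussis toxin, which induces experimental autoimmune encephalomyelitis with inflammation of the optic nerve. GB20 and GV16 mice had been immunized in the same way and were then needled repeatedly, under xylazine and ketamine, at the acupoint GB20 or at the comparison site GV16. What the sham procedure held, and whether SHAM and MOG mice were anesthetized, is not given in the sources used here, so needling and anesthesia cannot be told apart against MOG. Each group had 3 libraries, the whole experiment having been repeated 3 times with 2 or 3 mice per group. The labels do not say whether a replicate number marks 1 of these repeats, and whether a library was made from 1 mouse or more is not given. The p-values therefore measure the spread between these libraries. Between 15860278 and 19194280 fragments per library had been counted on genes.

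The libraries carried the marks of a retina. The 10 rod markers together took between 56830 and 63300 CPM (counts scaled to the size of the library), and none of the markers of cones, bipolar cells, amacrine cells or Müller cells was at 0 in any group. All 13 markers of retinal ganglion cells (RGCs) passed the test as lower in MOG than in SHAM, with a median log2 fold change of -0.89. Their summed level was 999 to 1139 CPM in SHAM, 583 to 698 in MOG, 699 to 716 in GB20 and 558 to 777 in GV16. In such tissue libraries, fewer cells of a type and less RNA per cell cannot be told apart. Lens markers summed to 16.7 CPM in the highest library, a SHAM library, and to 9.36 CPM or less in all libraries of the immunized groups.

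MMPs are zinc endopeptidases that cut proteins of the extracellular matrix, growth factors and cell surface receptors, and they are made as inactive precursors. Mmp2 and Mmp9 encode the secreted gelatinases, Mmp12 encodes the macrophage elastase, and Mmp14, Mmp15 and Mmp24 encode membrane-anchored enzymes. TIMPs are small secreted proteins that block the active site. One of them, TIMP2, also bridges MMP14 to the precursor of MMP2 at the cell surface, which is how MMP2 is usually activated. In the retina and optic nerve these proteins are known for the turnover of basement membranes, for the opening of the blood-retina barrier and for the response to axon injury.

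What makes the 6 proteases a family can be read from their coding sequence. The 33 bases shown here encode the zinc-binding site of each catalytic domain, with the codons of the 3 histidines that hold the zinc ion in capitals. They were taken from the GENCODE vM21 transcripts (GRCm38), and each lies within 1 coding exon.
Mmp2 (chr8:92839279-92839311, plus strand): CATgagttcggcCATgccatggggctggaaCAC
Mmp9 (chr2:164951133-164951165, plus strand): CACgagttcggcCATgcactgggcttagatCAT
Mmp12 (chr9:7352914-7352946, plus strand): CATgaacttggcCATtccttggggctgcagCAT
Mmp14 (chr14:54437627-54437659, plus strand): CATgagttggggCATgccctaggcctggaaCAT
Mmp15 (chr8:95368585-95368617, plus strand): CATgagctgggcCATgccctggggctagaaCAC
Mmp24 (chr2:155807427-155807459, plus strand): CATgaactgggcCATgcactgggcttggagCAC
Mmp2 and Mmp15 shared the most of these bases, 29 of 33, and Mmp9 and Mmp12 the fewest, 21 of 33. Mmp14 shared 27 with Mmp2 and 27 with Mmp15.

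The membrane-anchored members also carry a run of basic residues between the propeptide and the catalytic domain, at which furin-type proteases cut the precursor. It was searched for as arginine, any residue, lysine and arginine before the zinc site. It was found in Mmp14, Mmp15 and Mmp24, where the match nearest the zinc site is printed in capitals as a whole, and not in the other 3.
Mmp14 (chr14:54436202-54436213, plus strand): CGGAGGAAGCGC
Mmp15 (chr8:95366364-95366375, plus strand): CGGCGGAAACGT
Mmp24 (chr2:155798124-155798135, plus strand): AGAAATAAGCGA

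The mature inhibitors begin with a cysteine whose backbone binds the zinc of the protease. The 27 bases that encode the first residues are shown with the codons of the first and the next cysteine in capitals, on the coding strand.
Timp1 (chrX:20871111-20871137, plus strand): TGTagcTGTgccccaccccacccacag
Timp2 (chr11:118354986-118355012, minus strand): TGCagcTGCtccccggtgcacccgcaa
Timp3 (chr10:86300923-86300949, plus strand): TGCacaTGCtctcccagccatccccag
Timp4 (chr6:115251665-115251691, minus strand): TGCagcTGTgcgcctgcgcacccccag
Timp1 and Timp4 shared 21 of these 27 bases, the most of any pair, and Timp1 and Timp3 shared 16, the fewest.

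Levels per gene length were compared first, as deposited FPKM values (fragments scaled to gene length and library size), because counts do not compare genes. In SHAM the inhibitor Timp2 stood highest at 22.3 ± 0.418 FPKM (SD, n = 3). It was followed by Mmp24 (5.07 ± 0.337), Mmp9 (4.35 ± 0.132), Mmp2 (4.29 ± 0.317), Timp3 (4.18 ± 0.422), Mmp15 (2.41 ± 0.157), Mmp14 (2.25 ± 0.340), Timp1 (0.890 ± 0.180), Timp4 (0.0906 ± 0.0264) and Mmp12 (0.0295 ± 0.0306). Neighbours in this order whose libraries overlapped were Mmp9 and Mmp2, Mmp2 and Timp3, Mmp15 and Mmp14, and Timp4 and Mmp12. Timp2 alone made up 81.2% ± 1.84 of the summed FPKM of the 4 inhibitors in SHAM, 78.2% ± 1.93 in MOG, 77.4% ± 1.83 in GB20 and 77.0% ± 1.15 in GV16.

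**Figure D1:**
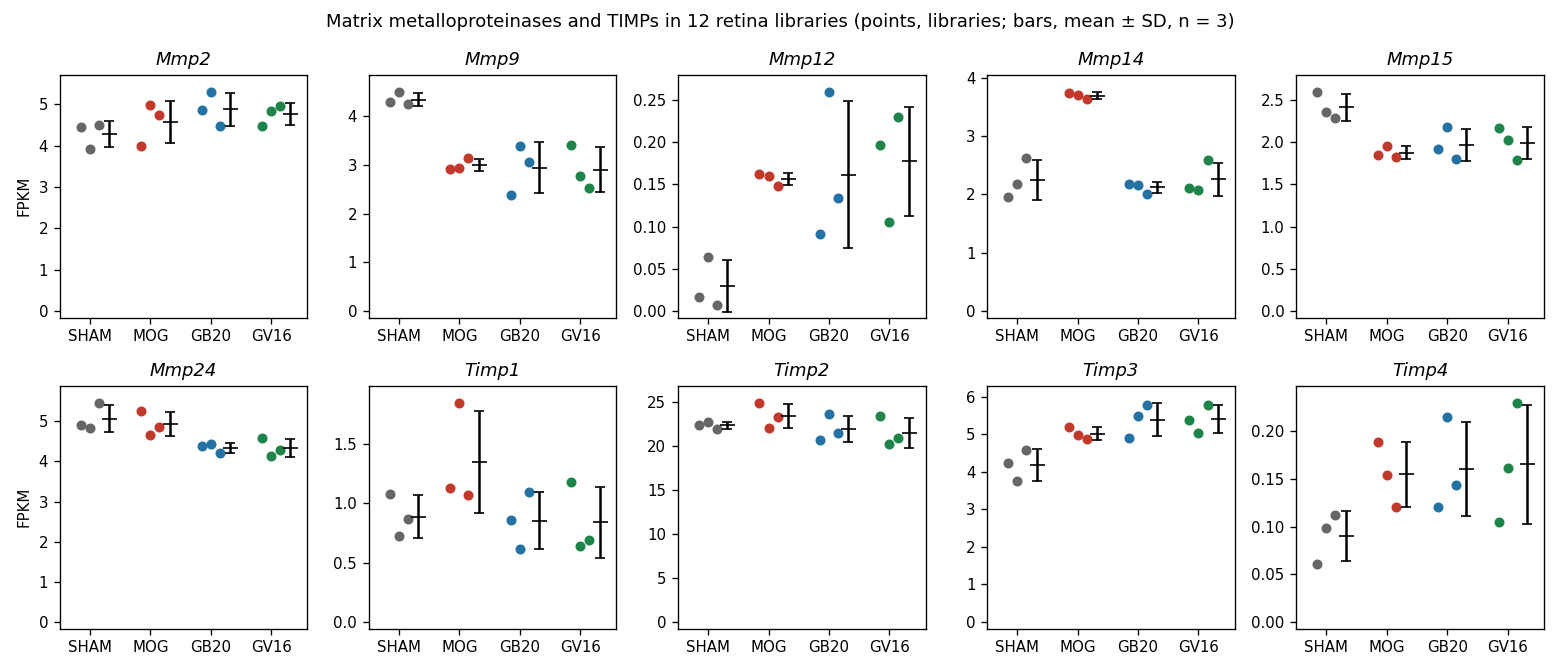
FPKM (vertical axis, from 0) of each of the 10 genes in the 12 libraries by group; points are libraries and the black mark with its bar is the mean ± SD of the 3 libraries. The 3 MOG points of Mmp14 (3.64 to 3.74 FPKM) lie above all 9 other points, and the 3 SHAM points stand apart at the top for Mmp9 and at the bottom for Mmp12.

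In MOG the order changed among the proteases. Mmp14 (3.70 ± 0.0553 FPKM) stood above Mmp9 (3.00 ± 0.127), and the libraries of these genes did not overlap, whereas in SHAM the order was the reverse, also without overlap. The summed FPKM of the 6 proteases was 18.4 ± 0.657 in SHAM and 18.2 ± 0.265 in MOG, and that of the 4 inhibitors was 27.5 ± 0.187 and 29.9 ± 1.26. Proteases thus made up 40.1% ± 0.834 of the sum of both families in SHAM, 37.9% ± 1.32 in MOG, 36.7% ± 0.978 in GB20 and 37.2% ± 0.982 in GV16. Within the protease sum, Mmp14 went from 12.2% ± 1.48 in SHAM to 20.3% ± 0.542 in MOG, and stood at 12.9% ± 0.788 in GB20 and 13.7% ± 1.77 in GV16. Mmp9 took 23.7% ± 1.48 in SHAM, 16.5% ± 0.632 in MOG, 17.9% ± 2.49 in GB20 and 17.7% ± 2.38 in GV16. These shares describe RNA and were not tested.

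**Figure D2:**
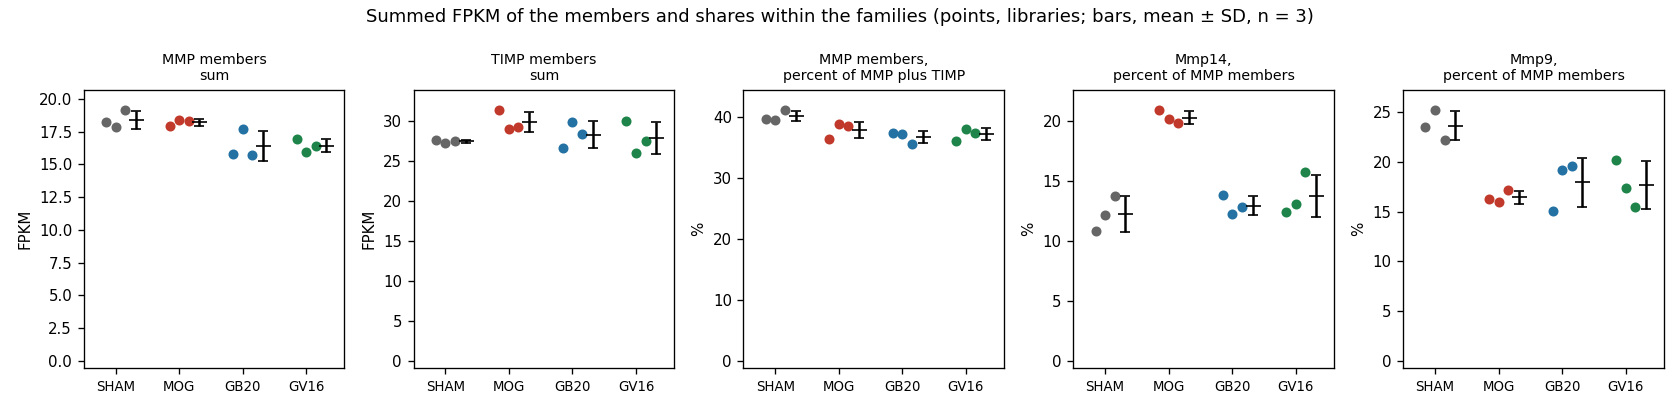
Summed FPKM of the 6 proteases and of the 4 inhibitors, and shares in percent of the sum, by group (vertical axes from 0; points are libraries, black marks the mean ± SD, n = 3). The protease sum is alike in SHAM and MOG (18.4 and 18.2 FPKM) while the share of Mmp14 is higher in MOG (20.3%) and that of Mmp9 lower (16.5%).

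The comparison of MOG with SHAM asked how these genes differed in the retina after MOG immunization. Since the content of the sham procedure is not given, optic neuritis, adjuvant and pertussis toxin cannot be told apart in it. By the quasi-likelihood test of edgeR, adjusted by Benjamini-Hochberg, 3 of the 10 genes passed, Mmp12 and Mmp14 higher and Mmp9 lower, where 1.34% of all tested genes passed. The libraries of both groups did not overlap for 6 of the 10 genes, against 16.2% of all tested genes. The median log2 fold change was 0.02 over the 6 proteases and 0.43 over the 4 inhibitors, beside -0.002 over all tested genes. By inhibitor it was 0.07 (Timp2), 0.26 (Timp3), 0.59 (Timp1) and 0.76 (Timp4), and Timp1 and Timp4 had few counts. None of the 4 inhibitors passed, 1 had an unadjusted p under 0.05, and DESeq2, limma-voom and limma on FPKM also called none of them.

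Mmp14 encodes MT1-MMP, the membrane-anchored collagenase and activator of MMP2, at chr14:54431612-54445364 of GRCm38 on the plus strand. Its level was 11.8, 13.1 and 15.8 CPM in the SHAM libraries and 22.4, 22.4 and 21.9 CPM in the MOG libraries. Every MOG library lay above every SHAM library, and the MOG libraries differed from each other by less than the SHAM libraries did. The log2 fold change was 0.71 (SE 0.116, 95% interval 0.47 to 0.95, 1.64-fold, edgeR adjusted p = 0.0015). Leaving out each of the 12 libraries in turn gave values from 0.62 to 0.83, all of them called. With limma on log2(FPKM + 1) and no filter on low values the call was lost for this rise (limma adjusted p = 0.0503) and for the fall at GB20 described next (0.0753).

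Both needled groups had levels near those of SHAM. Mmp14 was counted at 13.2, 13.0 and 12 CPM in GB20 and at 12.6, 12.5 and 15.5 CPM in GV16. All of these lay below the lowest MOG library and within the range of SHAM. Against MOG the log2 fold change was -0.80 at GB20 (SE 0.116, 95% interval -1.04 to -0.56, edgeR adjusted p = 0.00153) and -0.71 at GV16 (SE 0.116, -0.95 to -0.47, edgeR adjusted p = 0.0059). These comparisons share the MOG libraries with the comparison of MOG and SHAM, so the rise and the falls are not independent of each other. The fall at GV16 was not called without GV16 replicate 1 (-0.66, adjusted p = 0.0591) or GV16 replicate 2 (-0.66, adjusted p = 0.0866) by the same edgeR test, nor in 3 fits of limma to FPKM, with adjusted p between 0.0821 and 0.167.

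In comparisons that hold no MOG library, against SHAM, the log2 fold change of Mmp14 was -0.09 at GB20 (SE 0.12, 95% interval -0.34 to 0.16) and -0.003 at GV16 (SE 0.12, -0.25 to 0.24). Between the needling sites it was -0.09 (GB20 against GV16, SE 0.121, -0.34 to 0.16). Smaller differences than these bounds cannot be told from 0 with 3 libraries a group. Mmp14 was the only member called in GB20 vs. MOG and in GV16 vs. MOG, where 0.24% and 0.164% of all tested genes were called. Groups did not overlap for 2 of the 10 genes in each of these comparisons, against 15.7% and 12.6% of all tested genes, the other being Mmp24.

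**Figure D3:**
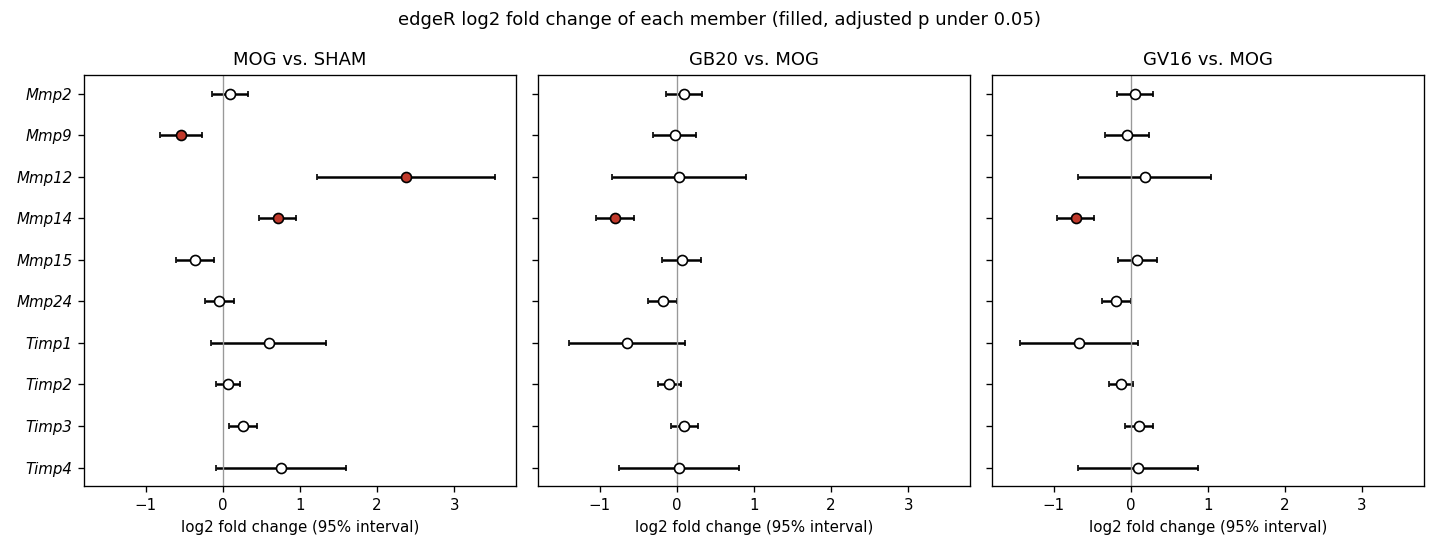
Log2 fold change of each gene (horizontal axis, bars are 95% intervals of the edgeR fit) for MOG against SHAM and for GB20 and GV16 each against MOG; filled points passed an adjusted p of 0.05. Mmp14 is filled in all 3 panels, at 0.71, -0.80 and -0.71, and Mmp9 and Mmp12 are filled in MOG vs. SHAM only and lie near 0 against MOG.

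The 3 tested genes most like Mmp14 across the 12 libraries (Pearson correlation of log2 CPM, given as a description, since all points share the 4 groups) were Hkdc1 (0.948), a hexokinase family gene, Plat (0.944), which encodes tissue plasminogen activator, and Slc20a2 (0.935), a phosphate transporter. Hkdc1 was at 10.1, 21.4, 7.89 and 8.86 CPM on average in SHAM, MOG, GB20 and GV16, Plat at 10.1, 19.2, 11 and 11.4, and Slc20a2 at 39.8, 55.2, 38.8 and 40.6. Each of them was called in the same 3 comparisons as Mmp14.

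Markers of Müller cells, of astrocytes and gliosis, and of endothelium and pericytes were set beside Mmp14. Over 11 Müller cell markers the median log2 fold change was 0.03 in MOG vs. SHAM, and 6 were above 0. Against MOG the median was -0.10 in GB20 and -0.04 in GV16. Only 2 of the 11 passed as higher in MOG and as lower in both needled groups against MOG. They were Aqp4, the water channel of glial endfeet (log2 fold change 0.46 against SHAM, then -0.35 at GB20 and -0.34 at GV16), and Crym (0.60, -0.50 and -0.73), and the summed level of the 11 markers was 4259 to 4512 CPM in SHAM, 3971 to 4392 in MOG, 4186 to 4408 in GB20 and 4245 to 4461 in GV16. Of 11 markers of astrocytes and gliosis, 5 rose in MOG, and the summed level of the 11 was 156 to 187 CPM in SHAM, 303 to 358 in MOG, 264 to 300 in GB20 and 227 to 291 in GV16. In GB20 vs. MOG 0 of the 11 were called, and in GV16 vs. MOG 1 was called lower. Against SHAM, 4 were called higher in GB20 and 3 in GV16. Of 13 markers of endothelium and pericytes none was called in any of the 6 comparisons. Their summed level was 317 to 361 CPM in SHAM, 347 to 372 in MOG, 333 to 343 in GB20 and 297 to 351 in GV16. The GB20 libraries thus lay below those of MOG and within the range of SHAM, while MOG overlapped both SHAM and GV16. The part of these cells in the change of Mmp14 was not tested.

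Mmp12 (chr9:7344381-7369499, plus strand) encodes the elastase first described in macrophages. It was a rare transcript, with 2, 8 and 1 counts in the SHAM libraries, 21, 19 and 18 in MOG, 13, 31 and 16 with GB20 and 23, 12 and 27 with GV16. Each library of an immunized group lay above every SHAM library, and MOG, GB20 and GV16 overlapped each other. The log2 fold change against SHAM was 2.38 in MOG (SE 0.556, 95% interval 1.23 to 3.53, 5.20-fold, edgeR adjusted p = 0.0306), 2.56 in GV16 (SE 0.55, edgeR adjusted p = 0.0269) and 2.40 in GB20 (SE 0.554, edgeR adjusted p = 0.0623). The interval against MOG ran from -0.84 to 0.89 at GB20 and from -0.68 to 1.04 at GV16, so that sizeable changes in either direction were not detectable at these counts.

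The call of Mmp12 was lost in some of the fits without 1 library. In MOG vs. SHAM the size of its change varied more without a SHAM library than without a MOG library. Calls over all genes in this comparison also varied, from 245 to 255, 106 and 91 without MOG replicates 1, 2 and 3. Without SHAM replicates 1, 2 and 3 they were 120, 216 and 427. In MOG the call was lost without SHAM replicate 1 (2.11) or 3 (1.91) and without MOG replicate 1 (2.35), 2 (2.37) or 3 (2.42), and without SHAM replicate 2, which had 8 counts, the log2 fold change was 3.61. In GV16 the call was lost without SHAM replicate 1 (2.29), SHAM replicate 3 (2.09), GV16 replicate 1 (2.48) or GV16 replicate 3 (2.33). In GB20 it was gained without SHAM replicate 2 (3.63). On the log2(FPKM + 1) scale the change in MOG was 0.17, a scale that understates the change of genes this low.

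Microglia and macrophages are a known source of Mmp12. All 16 of their markers were above 0 in every group and had a log2 fold change above 0 in MOG vs. SHAM, with a median of 0.55, and 3 passed (Csf1r 0.59, C1qa 0.99 and Ctss 0.98). Their summed level was 53.8 to 64.7 CPM in SHAM, 89.7 to 92.4 in MOG, 76.1 to 101 in GB20 and 82.1 to 94.8 in GV16, so that no library of an immunized group came down to SHAM. Their part in the change of Mmp12 was not tested. The genes most like Mmp12 across the 12 libraries were Gm9493 (Pearson correlation 0.922), 1110018N20Rik (0.903) and Dcaf6 (0.898), none of which was called in MOG vs. SHAM, and Mmp12 counts as low as 1 per library limit such a likeness. The exons of Mmp12 share 157 bases with those of Mmp1b on the other strand, and Mmp1b had 0 counts in all libraries.

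Promoter sequence is shown for the genes that rose, Mmp14 and Mmp12, as the 250 bases before the RefSeq start site (GRCm38.p6), with matches in capitals. The letters searched, on both strands, were TGANTCA (the AP-1 element), GGGCGG (the GC box) and TATAAA (the TATA box).
Mmp14 (chr14:54431348-54431597, plus strand): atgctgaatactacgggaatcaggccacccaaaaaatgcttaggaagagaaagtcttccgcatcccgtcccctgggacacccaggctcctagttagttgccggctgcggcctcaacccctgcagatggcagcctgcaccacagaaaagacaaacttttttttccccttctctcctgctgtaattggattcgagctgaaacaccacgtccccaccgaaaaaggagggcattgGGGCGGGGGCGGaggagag
Mmp12 (chr9:7347124-7347373, plus strand): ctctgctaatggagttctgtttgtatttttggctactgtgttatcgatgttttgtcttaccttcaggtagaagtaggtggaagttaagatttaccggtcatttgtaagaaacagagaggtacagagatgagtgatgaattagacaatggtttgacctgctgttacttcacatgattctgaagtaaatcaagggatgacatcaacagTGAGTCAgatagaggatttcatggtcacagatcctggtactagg
The Mmp14 window held 2 GC boxes in a row, which start 19 and 13 bases before the start site, and neither of the other letters. For Mmp12 the window of its longest coding transcript is shown, with 1 AP-1 match starting 44 bases before the start site. A second Mmp12 window, at chr9:7344147-7344396, held none of the 3. Among all 32851 promoter windows of this length, 6.75% held the AP-1 letters, 32.7% the GC box and 12.4% the TATA box. Of the 9 windows of the 8 members in the table, 1 held AP-1, 6 a GC box and 0 a TATA box. A match describes letters and not a site in use.

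Mmp9 (chr2:164940780-164955850, plus strand) encodes gelatinase B. It was at 15.3, 16.1 and 15.2 CPM in SHAM, 10.4, 10.5 and 11.2 in MOG, 8.55, 12.1 and 10.9 with GB20 and 12.2, 9.90 and 9.04 with GV16. All 9 libraries of immunized mice lay below all 3 SHAM libraries, and those of the 3 immunized groups overlapped. The log2 fold change against SHAM was -0.54 in MOG (SE 0.132, 95% interval -0.81 to -0.26, 0.689-fold, edgeR adjusted p = 0.04), -0.57 in GB20 (SE 0.132, edgeR adjusted p = 0.0632) and -0.58 in GV16 (SE 0.133, edgeR adjusted p = 0.0413). Against MOG it was -0.03 at GB20 (95% interval -0.31 to 0.25) and -0.04 at GV16 (-0.33 to 0.24).

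The size of this fall varied less than its call. With upper-quartile scaling it was -0.52 and not called (edgeR adjusted p = 0.0512), nor was it in 3 fits of limma to FPKM (limma adjusted p between 0.109 and 0.251). With any 1 library left out, the log2 fold change in MOG lay between -0.57 and -0.51. The adjusted p passed 0.05 in 6 of these 12 fits and rose to between 0.0525 and 0.21 by the same edgeR test without SHAM replicate 1 (-0.55) or 2 (-0.51), MOG replicate 1 (-0.52), 2 (-0.52) or 3 (-0.57), or GB20 replicate 3 (-0.54). In GV16 the call was kept in 4 of the 12 fits, with log2 fold changes between -0.71 and -0.49. In GB20 it was gained without GB20 replicate 2 (-0.68) or GV16 replicate 1 (-0.57).

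The genes most like Mmp9 across the 12 libraries were Scrt1 (Pearson correlation 0.955), a neuronal transcription factor, Palm3 (0.944) and Ina (0.937), which encodes the neuronal intermediate filament alpha-internexin. Scrt1 went from 125 CPM in SHAM to 90.6 in MOG, 89.5 in GB20 and 90.8 in GV16, and Ina from 97.7 to 68.5, 68.7 and 67.1, and both were called in MOG vs. SHAM. The RGC markers whose sums are given above fell in the same groups as Mmp9, and their part in its change was not tested. Neutrophils, which store this enzyme in granules, left little trace. Of 9 neutrophil markers 1 passed the filter, their summed level was at most 1.13 CPM in any library, and Ly6g was at 0 in all of them.

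Mmp15 and Mmp24 encode the other membrane-anchored proteases, the latter mainly a neuronal enzyme that cuts N-cadherin. Mmp15 was at 14.1, 12.8 and 12.5 CPM in SHAM and 10.02, 10.7 and 9.91 CPM in MOG, without overlap. Its log2 fold change was -0.36 (SE 0.119, edgeR adjusted p = 0.17), and in the needled groups it was at 10.7 ± 1.04 CPM (GB20) and 10.8 ± 1.02 CPM (GV16). Mmp15 thus did not pass the test. Mmp24 was at 24.0 ± 1.61 CPM in SHAM, 23.3 ± 1.31 in MOG, 20.5 ± 0.636 in GB20 and 20.4 ± 1.02 in GV16. Against MOG its log2 fold change was -0.18 at GB20 (SE 0.0918) and -0.19 at GV16 (SE 0.0923), with adjusted p of 0.63 and 0.957 by edgeR, although each needled library lay below each MOG library. Of its exons, 13.6% overlap those of BC029722 on the other strand. Because the strand setting of the counting is not given, reads of such partners cannot be told apart.

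Mmp2, which encodes gelatinase A, the substrate of MMP14, was at 15.1, 13.4 and 15.3 CPM in SHAM and 13.5, 17.0 and 16.1 CPM in MOG. The groups overlapped, and the log2 fold change was 0.09 (SE 0.113, 95% interval -0.14 to 0.32). It was at 16.6 ± 1.39 CPM in GB20 and 16.2 ± 0.9 CPM in GV16. Mmp2 thus showed no difference beyond the spread between libraries.

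Among the inhibitors, Timp2 (chr11:118301069-118355740, minus strand) was at 87.8, 89.4 and 86.2 CPM in SHAM and at 97.1, 86.9 and 91.5 CPM in MOG. Its log2 fold change of 0.07 (SE 0.0735, 95% interval -0.09 to 0.22) had the smallest error of the 10 genes. Per 100 FPKM of Timp2 there were 10.1 ± 1.67 FPKM of Mmp14 in SHAM, 15.8 ± 0.892 in MOG, 9.71 ± 0.732 in GB20 and 10.6 ± 1.7 in GV16. The MOG libraries (15.1 to 16.8) lay above all others, of which the highest was 12.4.

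Timp3 encodes the inhibitor that stays bound to the matrix, as in the membrane beneath the pigment epithelium. It was at 34.7, 30.8 and 37.7 CPM in SHAM, 42.5, 41.1 and 39.9 in MOG, 40.5, 44.9 and 47.1 with GB20 and 44.0, 41.3 and 47.3 with GV16. All immunized libraries lay above all SHAM libraries. The log2 fold change was 0.26 in MOG (SE 0.0878, edgeR adjusted p = 0.192), 0.36 in GB20 (SE 0.0875, edgeR adjusted p = 0.0769) and 0.36 in GV16 (SE 0.0878, edgeR adjusted p = 0.0609). None of these passed. Timp3 also stayed uncalled in 21 of 25 alternatives in GB20 and in 20 of 25 in GV16. With DESeq2 on all 12 libraries the values in GB20 and GV16 passed, with adjusted p of 0.0321 and 0.0259. They also passed by edgeR with no filter on low counts (adjusted p 0.0176 and 0.0138) and with the length trend removed (0.0216 and 0.0299). The same held with a block for the replicate number (edgeR adjusted p 0.0265 and 0.0208), and in GV16 without SHAM replicate 3 (0.43, edgeR adjusted p = 0.0233). Timp3 lies inside Syn3, a synapsin gene on the other strand, and 21.3% of its exon bases are shared. Syn3 was at 15.2, 8.65 and 13.7 CPM in SHAM, 12.2, 14 and 12 in MOG, 10.7 ± 1.46 in GB20 and 11.3 ± 1.67 in GV16. Markers of pigment epithelium and choroid, which are known to make Timp3, summed to 20.3 to 27.9 CPM in SHAM, 36.9 to 51.5 in MOG, 39.2 to 46.5 in GB20 and 23.5 to 63.1 in GV16, and their part was not tested.

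Timp1, the inhibitor that inflammatory cytokines are known to induce, had 16, 11 and 14 counts in SHAM, 18, 27 and 16 in MOG, 15, 9 and 16 with GB20 and 17, 9 and 10 with GV16. The groups overlapped, with MOG replicate 2 the highest library. Its log2 fold change was 0.59 in MOG (SE 0.362, 95% interval -0.16 to 1.34) and, against MOG, -0.65 at GB20 (SE 0.364) and -0.67 at GV16 (SE 0.37), with adjusted p of 0.505, 0.665 and 0.989 by edgeR. These intervals are wide because so few fragments were counted. Timp4 had 6, 10 and 12 counts in SHAM and 20, 15 and 12 in MOG. Its log2 fold change was 0.76 (SE 0.407, edgeR adjusted p = 0.437), and it had between 10 and 22 counts in each needled library. Timp1 lies inside Syn1 and Timp4 inside Syn2, both on the other strand, with no shared exon bases for Timp1 and 1.53% for Timp4.

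Between the needling sites none of the 10 genes passed by edgeR, where 0.00546% of all tested genes did. None had an unadjusted p under 0.05, and DESeq2, limma-voom and limma on FPKM called none. The log2 fold changes of GB20 against GV16 lay between -0.16 and 0.03. For Mmp12, Timp1 and Timp4, with few counts, the intervals reached from -0.79 or below to 0.70 or above, which is as precise as their counts allow.

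Against SHAM, 2 of the 10 genes passed in GV16 (Mmp9 and Mmp12), where 0.656% of all tested genes did. In GB20 0 of 10 passed by edgeR without a block for the replicate number, where 0.344% of all tested genes did. At an unadjusted p under 0.05 there were 6 genes in GV16 and 5 in GB20, a threshold at which all tested genes were not counted. DESeq2 on all 12 libraries called 3 in each (Mmp9, Mmp12 and Timp3), DESeq2 on the 6 libraries compared 1 and 0, limma-voom 2 and 0, and limma on FPKM 0 and 0. With no filter on low counts, and with the length trend removed, edgeR called the same 3 genes in each needled group. With a block for the replicate number edgeR also called these 3 in each. In GB20 the edgeR adjusted p was then 0.0341 (Mmp9), 0.0386 (Mmp12) and 0.0265 (Timp3). The settings that called all 3 genes also called more genes in all. The main fit called 120 genes in GV16 and 63 in GB20, and DESeq2 on all 12 libraries 202 and 152. By edgeR it was 395 and 282 with no filter, 162 and 120 with the length trend removed, and 236 and 182 with the block. The log2 fold changes of Mmp9, Mmp12 and Timp3 given above lay side by side in both needled groups, and no member passed the test between the sites.

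The other 17 MMPs of the mouse were looked at as a list. Of these, 6 passed the filter and none was called in any comparison by edgeR, DESeq2, limma-voom or limma on FPKM, with 2 at an unadjusted p under 0.05 in MOG vs. SHAM. Of the remaining 11, the stromelysin Mmp3, the matrilysin Mmp7 and the collagenase Mmp8 had 0 counts in all 12 libraries, and the collagenase Mmp13 had 15 in all. Of 11 ADAM and ADAMTS proteases, relatives of which TIMP3 also inhibits some, all were tested and none was called by edgeR. Their log2 fold changes lay between -0.31 and 0.68 in MOG vs. SHAM. At an unadjusted p under 0.05 there were 2 of them, and DESeq2 called 1.

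Of 15 regulators and partners of MMPs, 2 rose in MOG. A2m encodes alpha-2-macroglobulin, which traps active proteases. It was at 6.84, 6.88 and 5.55 CPM in SHAM and 15.5, 21.4 and 18.1 CPM in MOG, without overlap (log2 fold change 1.51, SE 0.259, edgeR adjusted p = 0.0117). Its call was lost without SHAM replicate 1 (1.56), SHAM replicate 2 (1.57), SHAM replicate 3 (1.41) or MOG replicate 3 (1.53), and by limma on log2(FPKM + 1) without a filter (limma adjusted p = 0.105). Cd44 encodes a hyaluronan receptor that can hold MMP9 and MMP14 at the cell surface. It was at 8.05, 7.59 and 8.27 CPM in SHAM, 12.7, 13.0 and 15.1 in MOG, 13.7, 12.9 and 10.6 with GB20 and 8.94, 7.84 and 10.6 with GV16. Its log2 fold change against SHAM was 0.77 in MOG (SE 0.136, edgeR adjusted p = 0.00289) and 0.64 in GB20 (SE 0.136, edgeR adjusted p = 0.0421). In GV16 it was 0.20 against SHAM (edgeR adjusted p = 0.653) and -0.57 against MOG (0.138). In GB20 against GV16 it was 0.44 and was not called. The call in MOG was lost in 1 fit, by limma on log2(FPKM + 1) without a filter (limma adjusted p = 0.106). The call in GB20 was lost with limma-voom (adjusted p 0.0579), with edgeR on the 6 libraries compared (0.0674) and in 3 fits of limma to FPKM (0.209 to 0.397), and was kept in 5 of the 12 fits without 1 library, in which the value lay between 0.56 and 0.73. Cd44 is also held by activated glia, whose gliosis markers are given above. Spock2 encodes testican 2, a proteoglycan related to MMP regulation, and was lower in GB20 than in SHAM (292 ± 20.6 against 383 ± 20.8 CPM, log2 fold change -0.39, SE 0.0857, edgeR adjusted p = 0.0479). It was about as low in MOG (303 ± 20.8 CPM) and GV16 (307 ± 38.6 CPM). Against SHAM the log2 fold change was -0.34 in MOG (edgeR adjusted p = 0.0501) and -0.32 in GV16 (edgeR adjusted p = 0.0985), and it was -0.05 in GB20 against MOG. Only 3 of the 12 fits without 1 library called the difference of GB20 from SHAM, with values between -0.45 and -0.34. In 7 other alternatives it was not called, with adjusted p between 0.0579 (limma-voom) and 0.438 (limma on log2(FPKM + 1) without a filter).

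Of 21 substrates of MMPs, 19 passed the filter and 2 were called, both chains of the basement membrane collagen IV, which are transcribed side by side from opposite strands. Col4a1 was at 33, 36.2 and 42.5 CPM in SHAM, 48.4, 56.6 and 56.8 in MOG, 32.7, 38.3 and 36.1 with GB20 and 42.4, 40.6 and 41.9 with GV16. The MOG libraries lay above all others. It rose by 0.53 on the log2 scale in MOG (SE 0.093, edgeR adjusted p = 0.0028) and was lower in GB20 than in MOG (log2 fold change -0.60, SE 0.0932, edgeR adjusted p = 0.00343), and both calls held with any 1 library left out. By limma on FPKM the fall in GB20 was called in none of 3 fits (limma adjusted p between 0.0667 and 0.13), and the rise was lost in 1 of them, that on log2(FPKM + 1) without a filter (0.105). Col4a2 was at 28.6, 33.5 and 35.6 CPM in SHAM, 32.3, 39.7 and 39.9 in MOG, 23.5, 28.5 and 24.5 with GB20 and 27.2, 27.4 and 33.6 with GV16. Its call was in GB20 vs. MOG (log2 fold change -0.55, SE 0.11, edgeR adjusted p = 0.0292), and it was lost without MOG replicate 2 (-0.50) or 3 (-0.50) and without GB20 replicate 1 (-0.49) or 3 (-0.52), with limma-voom (adjusted p 0.0548) and in 3 fits of limma to FPKM (0.213 to 0.436). In GV16 vs. MOG the log2 fold change was -0.37 for Col4a1 (edgeR adjusted p = 0.187) and -0.34 for Col4a2 (0.59), and neither passed. Between the sites (GB20 against GV16) it was -0.22 for Col4a1 and -0.21 for Col4a2, and neither was called. Over the 19 substrates the median log2 fold change was -0.02 in MOG vs. SHAM and -0.12 in GB20 vs. MOG, beside 0.001 over all tested genes in the latter.

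**Figure D4:**
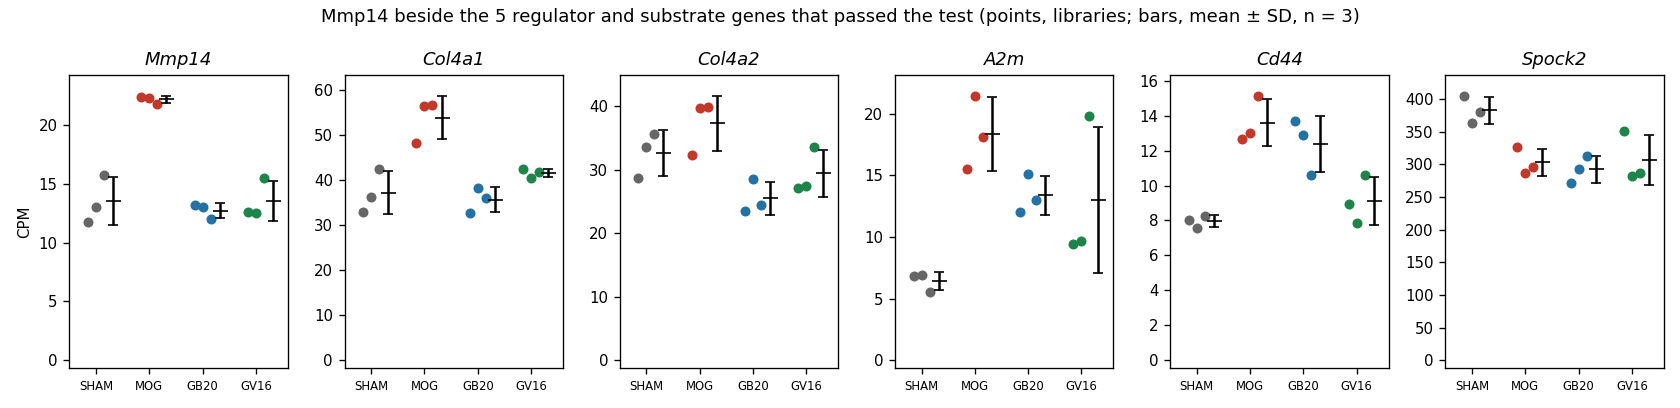
CPM (vertical axis, from 0) of Mmp14 and of the 5 regulator and substrate genes that passed the test in at least 1 comparison, by group; points are libraries and black marks the mean ± SD, n = 3. Mmp14 and Col4a1 have their 3 MOG libraries above all others, whereas Cd44 is also high in GB20 (10.6 to 13.7 CPM). Cd44 was not called between GB20 and GV16. Spock2 is lower in MOG, GB20 and GV16 (303, 292 and 307 CPM on average) than in SHAM (383 CPM).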

How the data were processed

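RNA of whole retinas had been sequenced as 12 libraries, 3 for each of SHAM, MOG, GB20 and GV16, and group and replicate number were taken from the labels. The authors selected polyadenylated RNA with beads, aligned paired-end reads with Hisat2 (HISAT2 2.0.5 and mm10, per the labels) and counted them per gene with FeatureCounts. They deposited whole-number counts without normalization, and FPKM values that the authors computed from gene length and count. Sources used here do not give the annotation release, the strand setting or how reads that align more than once were counted. Authors' columns of comparisons were not among the files used.

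Gene names and coordinates came from GENCODE vM21 (GRCm38, the same build as mm10), which held 54495 of 54532 identifiers, and the other 37 carried 0.0115% of counts. The filter of edgeR 4.0.16 (R 4.3.3) kept 18299 of 34538 genes with any count. Counts were scaled by TMM and fitted with 1 mean per group over all 12 libraries in the robust quasi-likelihood model, with 8 residual degrees of freedom and Benjamini-Hochberg adjustment over all tested genes. A gene was called, or passed, when its adjusted p was under 0.05, whatever the size of its change. CPM used the TMM library sizes, and FPKM served for levels between genes. A log2 fold change is given with its standard error (SE).

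All 10 members are described, with every gene of the other lists called in at least 1 of the 6 comparisons and the 3 genes most correlated with each member that was called (log2 CPM, prior count 2). The members and lists were chosen with earlier results of these data known. DESeq2 1.42.0, limma 3.58.1 (voom on counts, and log2(FPKM + 1) or log2(FPKM + 0.1)), other scalings and filters, a length correction, a replicate block and leaving out each library were alternatives. The tests were first run on simulated counts with known changes. Promoters were those of RefSeq for 8 of the 10 members. Totals per library were 15860278 to 19194280, so a gene with a few counts per library is known only to within its counting error.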

Additional observations from a re-analysis of the deposited data

How the results depend on the processing

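Over 25 alternatives, 36 log2 fold changes gave 893 values, of which 758 kept their direction and their side of the threshold, 92 lost and 20 gained the call, and 23 changed sign, none of them called in either direction. DESeq2 on the 6 libraries compared gave no adjusted p for Mmp12 in 4 comparisons, for Timp1 in GB20 and GV16 against MOG, and for Timp4 in MOG vs. SHAM. The cause of the changes below was not tested.

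In MOG vs. SHAM 3 members were called. The count was 1 with limma on log2(FPKM + 1), 1 with log2(FPKM + 0.1), 0 on log2(FPKM + 1) without a filter, and 1 to 3 with 1 library left out. In GB20 vs. MOG it was 1, and 0 on log2(FPKM + 1) without a filter. In GV16 vs. MOG it was 1, 0 in each of the 3 FPKM fits, and 0 to 1 with 1 library left out. In GB20 vs. SHAM it was 0, 3 with DESeq2 on 12 libraries, 3 without a filter on low counts, 3 with the length trend removed, and 0 to 1 with 1 library left out. In GV16 vs. SHAM it was 2, 3 with DESeq2 on 12 libraries, 3 without a filter on low counts, 3 with the length trend removed, 1 with DESeq2 on the 6 libraries, 0 with edgeR on them, 0 in each FPKM fit, and 0 to 2 with 1 library left out.

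With a replicate block, 3 members were called in MOG vs. SHAM, 1 in GB20 vs. MOG, 1 in GV16 vs. MOG, 0 in GB20 vs. GV16, 3 in GB20 vs. SHAM and 3 in GV16 vs. SHAM. In GB20 vs. SHAM these were Mmp9 (edgeR adjusted p = 0.0341), Mmp12 (0.0386) and Timp3 (0.0265), and in GV16 vs. SHAM Timp3 was gained (0.0208). In the same order, the block gave 404, 73, 47, 1, 182 and 236 calls over all genes in place of 245, 44, 30, 1, 63 and 120. Same-numbered libraries deviated together with correlations between -0.0966 and 0.286, of which 3 of 18 passed 0.1, while 9 of 12 libraries correlated best with their own number. The experiment was repeated 3 times, but the labels do not say that a number marks 1 of these repeats, a shared batch or a day. The numbers were therefore not taken to pair the libraries.

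Signs changed as follows. With 1 library left out, the log2 fold change of Mmp24 in MOG vs. SHAM lay between -0.0909 and 0.0124, Mmp9 in GB20 vs. MOG between -0.14 and 0.11, Mmp9 in GV16 vs. MOG between -0.18 and 0.0468, Mmp12 in GB20 vs. MOG between -0.48 and 0.32, Mmp12 in GV16 vs. MOG between -0.0485 and 0.44, Mmp14 in GB20 vs. GV16 between -0.14 and 0.0194, in GB20 vs. SHAM between -0.18 and 0.0338, and in GV16 vs. SHAM between -0.11 and 0.12. Mmp12 in GB20 vs. MOG was -0.12 with limma-voom, -0.0223 on log2(FPKM + 0.1) and -0.0102 with the replicate block. Mmp14 in GV16 vs. SHAM was 0.000386 with DESeq2 on 12 libraries, 0.00074 with DESeq2 and 0.0022 with edgeR on the 6 libraries, 0.00294 with RLE size factors, 0.00787 with upper-quartile scaling, 0.00304 on log2(FPKM + 1) with and without a filter, and 0.00509 on log2(FPKM + 0.1).

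Over all genes, calls in MOG vs. SHAM ranged from 57 (log2(FPKM + 1) without a filter) to 539 (no filter on low counts), in GB20 vs. MOG from 12 to 140, in GV16 vs. MOG from 5 to 73, in GB20 vs. GV16 from 0 to 8, in GB20 vs. SHAM from 5 to 282 and in GV16 vs. SHAM from 7 to 395. Depth limits Mmp12, Timp1 and Timp4 most, which had 31 counts or fewer in every library.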
